A study of Homo sapiens with 4 samples.

Results

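The hypoxia pathway loci described here are the surroundings of 10 genes of the cellular oxygen response in NCM460 cells, an established line from human colon epithelium in which binding of the transcription factor CEBPB was mapped by ChIP-seq. The genes are HIF1A, EPAS1, ARNT, EGLN1, EGLN3, VEGFA, CA9, ADM, BNIP3 and SLC2A1, on 7 chromosomes. A CEBPB site belonged to a locus when it lay within 200 kb of the gene's start site in the hg19 build, which was given to the nearest 1 kb. By that rule the loci held 244 of 80530 summits in replicate 1 and 308 of 104307 summits in replicate 2. They held 76 of the 25602 reproducible regions, those listed by the authors at an irreproducible discovery rate (IDR, a score of how well the replicate ranks match) of at most 0.05. The loci were chosen by the positions and strengths of CEBPB peaks in these same lists, so that the number of sites at each locus is a description.

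The series consisted of 2 CEBPB ChIP samples and 2 input samples, all from NCM460 cells in standard culture, with no genotype, agent or low-oxygen treatment named. Nothing says that the replicates came from separate cultures, so their spread may be technical. Each ChIP sample had its own peak list, in which input enters as the caller's background. The fold enrichment at a summit is the authors' value, the pileup of ChIP reads over that background. Fragments are the whole extended reads at the summit, worked out from the deposited fold and p-value. The median summit of the lists rested on 24 fragments in replicate 1 and 28 in replicate 2.

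Hypoxia-inducible factor (HIF) is a pair of basic helix-loop-helix proteins. Its alpha subunit, encoded by HIF1A or EPAS1, is hydroxylated on prolines by the oxygen-dependent enzymes EGLN1 and EGLN3 and is then degraded through the VHL ubiquitin ligase, whereas its beta subunit ARNT is stable. When oxygen falls, the alpha subunit persists, joins ARNT and binds hypoxia response elements, with the core ACGTG or GCGTG, at genes of blood vessel growth, pH control, mitophagy and glucose uptake. CEBPB is a basic leucine zipper factor of inflammatory and stress responses, and in the gut epithelium oxygen is physiologically low toward the lumen.

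Promoter sequences of 6 of the genes are shown so that their motif content can be set beside the ChIP values at their start sites. ARNT, EPAS1 and ADM had a reproducible region within 5 kb of the start site. HIF1A, BNIP3 and EGLN3 had none there, and EGLN3 holds the one C/EBP match. Each is the run of 250 bases before the start site, from RefSeq in the GRCh38.p14 build, printed 5′ to 3′ on the strand of the gene, and the positions given with it are of that build and not of the hg19 build of the peaks. Capitals mark matches on either strand of TTGCNNAA (C/EBP), TGATGCAA (the composite of C/EBP and ATF factors), ACGTG and GCGTG. Matches that overlap run together.
ARNT (chr1:150876600-150876849, minus strand): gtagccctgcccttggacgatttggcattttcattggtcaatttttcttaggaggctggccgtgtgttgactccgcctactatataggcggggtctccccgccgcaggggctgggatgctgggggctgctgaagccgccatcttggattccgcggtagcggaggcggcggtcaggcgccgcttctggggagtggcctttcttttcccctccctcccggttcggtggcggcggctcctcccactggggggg
EPAS1 (chr2:46297157-46297406, plus strand): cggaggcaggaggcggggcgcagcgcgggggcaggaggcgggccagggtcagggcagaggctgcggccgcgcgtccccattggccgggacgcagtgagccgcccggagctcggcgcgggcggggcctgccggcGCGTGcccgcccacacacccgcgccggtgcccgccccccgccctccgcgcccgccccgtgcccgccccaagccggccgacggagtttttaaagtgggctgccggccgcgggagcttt
ADM (chr11:10304823-10305072, plus strand): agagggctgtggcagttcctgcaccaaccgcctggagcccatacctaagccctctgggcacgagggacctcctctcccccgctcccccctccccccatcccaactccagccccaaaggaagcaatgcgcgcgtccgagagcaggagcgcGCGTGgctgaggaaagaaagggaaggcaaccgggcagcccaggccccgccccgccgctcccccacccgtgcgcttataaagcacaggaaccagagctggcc
HIF1A (chr14:61695263-61695512, plus strand): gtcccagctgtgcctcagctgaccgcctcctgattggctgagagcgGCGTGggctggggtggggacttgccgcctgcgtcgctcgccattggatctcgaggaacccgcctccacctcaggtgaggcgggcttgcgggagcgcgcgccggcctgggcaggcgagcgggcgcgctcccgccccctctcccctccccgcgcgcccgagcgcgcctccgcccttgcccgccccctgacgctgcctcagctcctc
BNIP3 (chr10:131981924-131982173, minus strand): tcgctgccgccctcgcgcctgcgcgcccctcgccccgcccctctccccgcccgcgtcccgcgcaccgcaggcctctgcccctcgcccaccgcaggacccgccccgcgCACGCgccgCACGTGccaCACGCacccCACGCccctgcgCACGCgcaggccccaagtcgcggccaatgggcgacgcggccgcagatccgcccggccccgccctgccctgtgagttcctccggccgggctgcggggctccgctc
EGLN3 (chr14:33951075-33951324, minus strand): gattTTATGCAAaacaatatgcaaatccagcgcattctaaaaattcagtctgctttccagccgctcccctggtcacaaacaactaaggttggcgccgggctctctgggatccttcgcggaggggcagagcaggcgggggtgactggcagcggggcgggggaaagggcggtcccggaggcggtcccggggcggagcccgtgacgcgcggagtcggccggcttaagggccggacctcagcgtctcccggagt

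In these windows, extended to 50 bases after the start, TTGCNNAA matched the promoter of 1 of the 9 genes with an entry (EGLN3, as TTATGCAA, 246 bases before the start), against 10.5% of 35116 promoters. TGATGCAA and the palindrome TTGCGCAA matched none of the 9, against 0.866% and 0.151% of all promoters. ACGTG matched EGLN1, CA9 and BNIP3 (21.4% of all promoters), and GCGTG matched HIF1A, EPAS1, ADM, BNIP3 and SLC2A1 (36.5%). The ARNT promoter window held none of these motifs. The strongest member region lay within 1 kb of that start, with summits 0.4 kb upstream of the rounded start site. The EPAS1 and ADM regions, 1.8 and 2.3 kb downstream, lay outside the promoter windows. Sequences under the summits were not searched, so the motifs of the bound sites are not known here. HIF1A had a second entry, which held none of these motifs either. VEGFA has no entry.

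The alpha subunit genes had the most reproducible regions of the 10 loci within 200 kb, 15 at EPAS1 and 14 at HIF1A. The order of the loci depends on the setting. At an IDR of at most 0.01 HIF1A had 7 regions, against 13 at EPAS1, 8 at VEGFA and 7 at CA9. Within 100 kb it had 5, against 8 at EPAS1, 6 at VEGFA and 5 at ARNT, and within 50 kb 2, against 6 at EPAS1 and 3 at ARNT and at ADM. In the single lists, cut at a −log10 q of at least 5, HIF1A came first and ADM stood above EPAS1. Peaks there numbered 30 at HIF1A, 29 at ADM and 28 at EPAS1 in replicate 1, and 41, 36 and 27 in replicate 2. At the main setting CA9, a carbonic anhydrase of the cell surface, had 11, and VEGFA, the vascular endothelial growth factor, had 10. ARNT and EGLN3 had 7 each, SLC2A1 (the glucose transporter GLUT1) had 5, ADM (the vasodilator peptide adrenomedullin) had 4 and EGLN1 had 2. BNIP3, a mitophagy receptor of the mitochondrial outer membrane, had 1. Tiles of 400 kb across chromosomes 1 to 22 and X, as wide as a locus, held a mean of 3.37 and a median of 2 regions. Of these tiles, 0.937% held at least 15 regions, 1.40% at least 14, 4.84% at least 11 and 6.73% at least 10. At least 7 regions were held by 18.0% of tiles, at least 5 by 31.1%, at least 4 by 39.6%, at least 2 by 60.1% and at least 1 by 72.8%. Numbers at EGLN1, BNIP3, ADM and SLC2A1 were therefore common across the genome. Among tiles in Giemsa-negative (gene-rich) bands, the shares were 1.19% for at least 15 regions and 1.84% for at least 14. The 10 loci together had 19.0 regions per Mb, against 8.43 over these chromosomes.

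**Figure D1:**
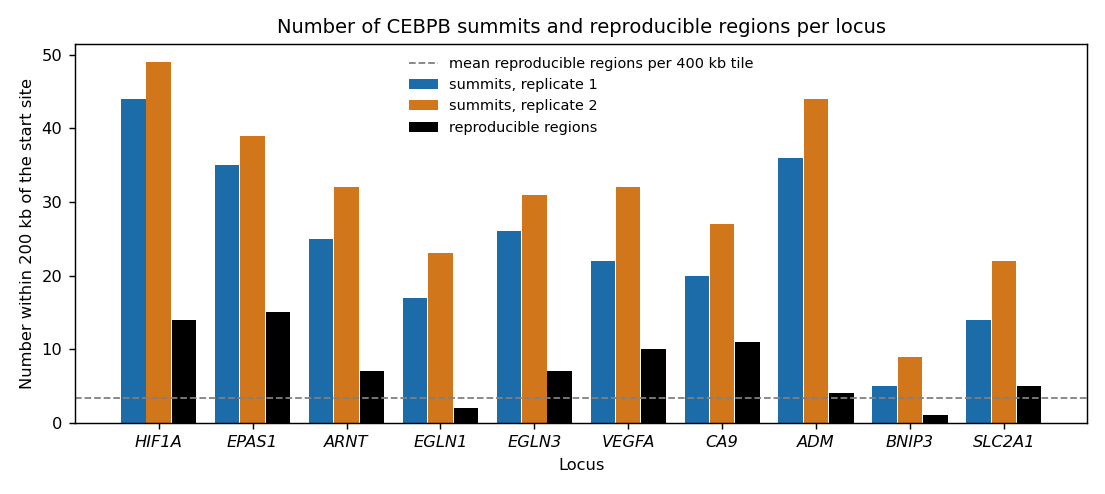
Number of CEBPB summits in each replicate and of reproducible regions (bars from 0) within 200 kb of each start site, with the mean of 3.37 reproducible regions per 400 kb tile as a dashed line. EPAS1 and HIF1A reach 15 and 14 regions, while ADM has 36 and 44 summits but 4 regions.

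The distances of the sites from the start sites were close to an even spread over the window. Of the 76 regions, 2 lay within 2 kb of a start site, 4 between 2 and 10 kb, 15 between 10 and 50 kb, 16 between 50 and 100 kb and 39 between 100 and 200 kb. Regions spread evenly over the window would give 0.76, 3.04, 15.2, 19 and 38 in these classes. Upstream of their gene lay 50 regions and downstream of the start 26. For a measure of the background, 3.21% of all 4 kb tiles of the genome held a reproducible region, with tiles placed without regard to genes. The regions were not assigned to exons, introns or other genes, since no annotation of hg19 was used here, and other genes lie inside the windows. In the RefSeq gene order of GRCh38.p14, HIF1A stands between TMEM30B and SNAPC1, with PRKCH before TMEM30B. EPAS1 stands between PRKCE and TMEM247. This order does not show how far a gene reaches, so regions upstream of HIF1A or EPAS1 may lie within another gene. The region just inside the limit of 200 kb was at EPAS1, 199 kb upstream, with folds of 12.3 and 9.40. The region just outside, also near EPAS1, lay 202 kb away with folds of 9.58 and 10.4.

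**Figure D2:**
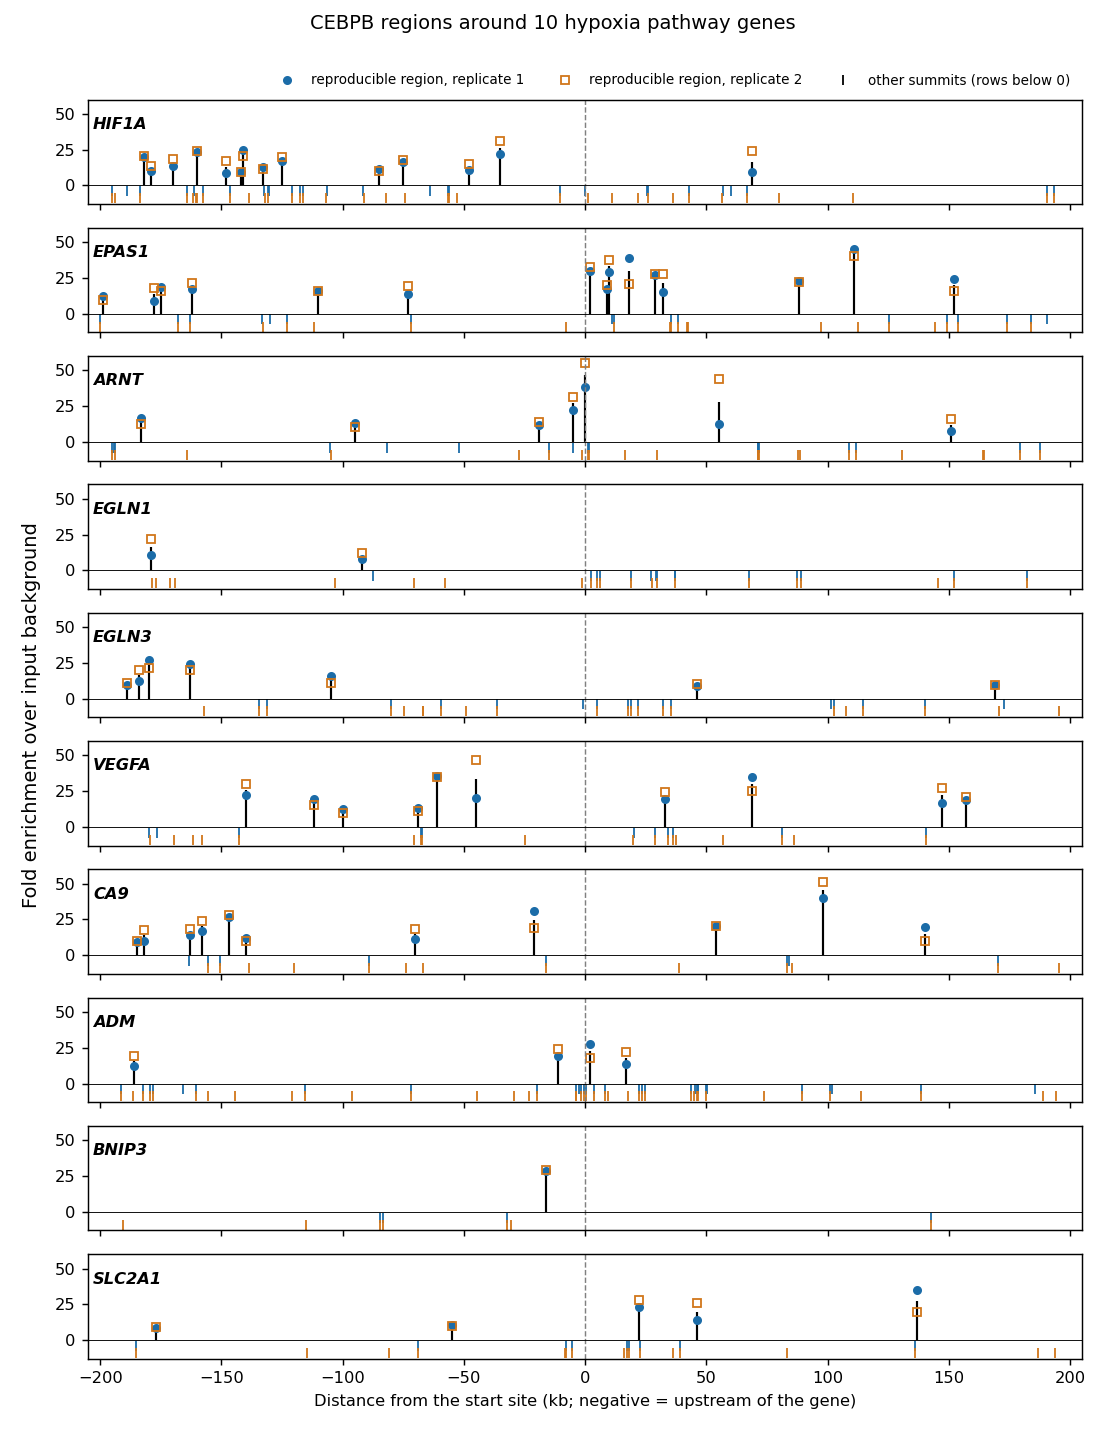
Fold enrichment of the reproducible regions against distance from the start site in kb, oriented by gene, with replicate 1 as filled circles, replicate 2 as open squares and the mean of both as the stem. Ticks below 0 are summits outside the IDR table (upper row replicate 1, lower row replicate 2). HIF1A regions lie upstream except 1, and 6 of the 15 EPAS1 regions form a run after the start.

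At HIF1A, 13 of 14 regions lay upstream and the start site itself carried no reproducible region. Near the start, replicate 1 had a summit 0.1 kb upstream with a fold of 3.02 and 25 fragments, and replicate 2 had one 1.1 kb downstream with a fold of 3.40 and 20 fragments. Neither overlapped a peak of the other replicate, so the replicates did not mark the same site there. The nearest reproducible region, at chr14:62126291-62126928 and 35 kb upstream, was also the strongest of the locus. Its fold was 21.9 in replicate 1 and 30.8 in replicate 2 (26.4 ± 6.33, SD, n = 2), with 117 and 153 fragments. The single downstream region lay 69 kb away at chr14:62231050-62231394, with folds of 9.12 and 23.7 and with 58 and 119 fragments. The replicates were far apart at this region in fold, but the fragments did not pass the test of the difference described below (exact binomial test, adjusted p = 0.072).

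Farther upstream, 9 of the HIF1A regions formed a run from 182 to 125 kb before the start (chr14:61979126-62037027, 57.9 kb), each separated from the next by less than a limit set between 12 and 13 kb. Of all reproducible regions, 39.5% had another within that limit, and of the 76 member regions 36 (47.4%) had. How many of all regions stood in runs of at least 5 was not worked out. The runs here and at EPAS1 are therefore descriptions. The mean fold over the run was 16.3 ± 5.13 (SD over 9 regions). Beginning at the far end, the region 182 kb upstream had folds of 20.1 and 20.6 in replicates 1 and 2 and the region 179 kb upstream 9.80 and 13.5. The regions 170 and 160 kb upstream had 13.2 and 18.7, and 23 and 24. The regions 148 and 142 kb upstream had 8.53 and 17.3, and 9.16 and 9.51, the last being the weakest of the run. Next to it, 141 kb upstream at chr14:62020416-62020954, folds were 24.7 and 20.4, with 197 and 228 fragments. The regions 133 and 125 kb upstream had 12.98 and 11.6, and 17.1 and 20.1.

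Read by fragments, the HIF1A run stood higher than by fold. The region 125 kb upstream at chr14:62036473-62037027 rested on 220 and 250 fragments, more than 208 and 239 at the ARNT start site, whose fold was 38.7 and 55.0. The background of this HIF1A region was 11 and 9.0 expected fragments, against 4.0 and 2.5 at the ARNT region. Over the run the background had medians of 7.0 in replicate 1 and 5.0 in replicate 2, where all reproducible regions had 2.14 and 2.65. The summits of the whole HIF1A locus had median backgrounds of 5.0 and 4.0 expected fragments. The background was thus high at HIF1A in both replicates, and its part in the number of sites there was not tested. At an IDR of at most 0.01, 5 of the 9 regions remained and no longer formed a run of at least 5. That limit was met by 51 of the 76 member regions and by 15504 of all 25602 regions.

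**Figure D3:**
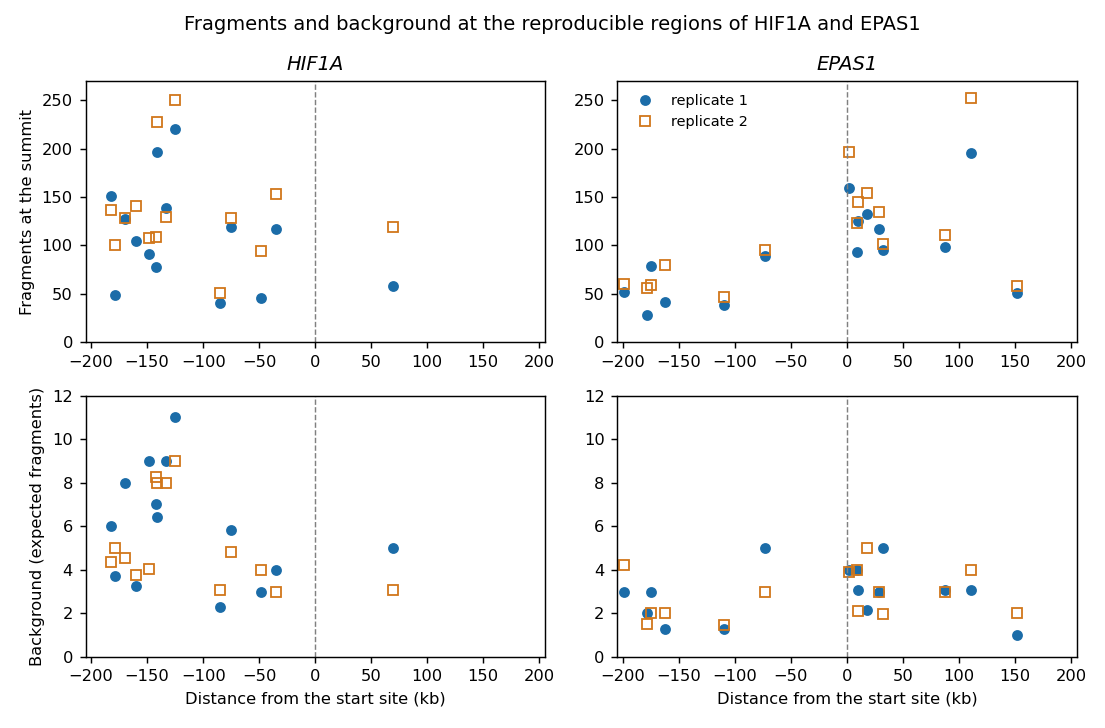
Fragments at the summit (top) and background in expected fragments on the scaled pileup (bottom) at each reproducible region of HIF1A (left) and EPAS1 (right), against distance from the start site in kb, by replicate. The HIF1A run from 182 to 125 kb upstream combines 49 to 250 fragments with backgrounds of 3.27 to 11, while EPAS1 backgrounds are at most 5.0.

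EPAS1, which encodes HIF-2 alpha, had regions on both sides of the start, with its longest run downstream. Of its 15 regions 9 lay downstream, and 6 of these formed a run from 2 to 32 kb after the start (chr2:46526478-46557354, 30.9 kb) with a mean fold of 26.9 ± 5.81 (SD over 6 regions). All 6 had an IDR of at most 0.01, as had 15504 of all 25602 regions. The region nearest the start, 1.8 kb downstream at chr2:46526478-46527198, had folds of 29.7 and 32.4 (31.0 ± 1.9, SD, n = 2) and 159 and 197 fragments. The regions 9 and 10 kb downstream had folds of 17.4 and 19.9, and 28.8 and 37.8. At 18 kb the folds were 39.2 and 20.7, although the fragments were similar at 132 and 154. The background of that region was 2.14 in replicate 1 and 5.0 in replicate 2. The region 29 kb downstream had folds of 27.4 and 27.5, and the region 32 kb downstream had 14.8 and 27.4.

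The strongest EPAS1 region lay 111 kb downstream at chr2:46635963-46636725. Its folds were 45.0 and 40.5 (42.7 ± 3.16, SD, n = 2), on 196 and 252 fragments. Of all 25602 regions, 98.1% had a mean fold up to this one and 98.2% had as many or fewer fragments. It was thus high on both scales and close between the replicates. The 6 upstream regions had mean folds from 10.8 at 199 kb to 19.6 at 162 kb, and the 9 downstream from 18.7 at 9 kb to 42.7 at 111 kb, so that the ranges overlap.

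ARNT, the stable beta subunit, carried the strongest region of the 10 loci within 1 kb of its start site, at chr1:150849141-150849719. Its fold was 38.7 in replicate 1 and 55.0 in replicate 2 (46.9 ± 11.5, SD, n = 2), on 208 and 239 fragments, and the summits lay 13 bp apart. Of all regions, 98.99% had a mean fold up to this one. A second region 5 kb upstream, at chr1:150853776-150854518, had folds of 22.6 and 31.6 with 121 and 149 fragments. Beside them both lists held a peak with 2 summits 1.1 and 1.5 kb downstream in replicate 1 and 1.1 and 1.4 kb in replicate 2. The folds of that peak were 9.39 and 4.95 in replicate 1 and 8.24 and 16.0 in replicate 2, and it is not in the IDR table. Replicate 2 alone had a further weak summit 1.2 kb upstream, with a fold of 5.96 and 36 fragments. The region 55 kb downstream at chr1:150793122-150794136 had the widest gap in fold of the 76, 12.7 against 43.9. Its fragments were 122 and 153, and its background was 8.0 in replicate 1 and 1.81 in replicate 2. The other ARNT regions had mean folds of 11.7 to 14.6.

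The prolyl hydroxylase genes had 9 regions between them. EGLN1, the main oxygen sensor of the pathway, had 2 regions, both upstream. The nearer, 92 kb away at chr1:231652666-231653174, had folds of 7.61 and 12.4 and the stronger, 179 kb away at chr1:231738999-231740058, had 10.6 and 21.7. Within 2 kb of the start, replicate 2 alone had a summit, with a fold of 4.16 and 11 fragments. Just beyond, 2.5 kb downstream, both lists held a peak that is not in the IDR table. Its folds were 5.26 and 5.10, on 33 and 37 fragments. EGLN3, itself induced by HIF, had within 2 kb of the start a summit in replicate 1 alone, 1.0 kb upstream with a fold of 3.62 and 13 fragments. It had 7 regions, of which the nearest lay 46 kb downstream with folds of 8.88 and 10.3. Its strongest region lay 180 kb upstream at chr14:34600203-34600618, with folds of 27.2 and 21.2 (24.2 ± 4.24, SD, n = 2). By fragments, the region 163 kb upstream at chr14:34582141-34582969 was the tallest of the 76 in the sum of both replicates, with 235 and 273, over backgrounds of 8.0 and 10. The median of the mean fold was 13.3 over the 9 regions of both hydroxylase genes, 14.6 over the 7 of ARNT, 18.6 over the 29 of the alpha subunits and 20.3 over the 31 of the 5 targets. These medians are descriptions of few loci, and regions of 1 locus are not replicates of a class.

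Among the HIF targets, VEGFA had 10 regions and no summit within 2 kb of its start. The strongest, 61 kb upstream at chr6:43676943-43677558, had nearly equal folds of 35.9 and 34.6 (35.3 ± 0.909, SD, n = 2) and 154 and 172 fragments. The region 45 kb upstream at chr6:43692689-43693224 had folds of 19.9 and 47.0 with 128 and 175 fragments, over backgrounds of 5.0 and 2.0. The nearest region, 33 kb downstream at chr6:43770637-43771110, had folds of 19.6 and 24.7. A region 69 kb downstream at chr6:43806372-43806789 reached 34.6 and 25.3. Both sides of the gene therefore carried sites with a mean fold above 22, with none at the start.

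CA9 had the second strongest region of the 10 loci, 98 kb downstream at chr9:35771804-35772341. Its folds were 39.95 and 51.0 (45.5 ± 7.81, SD, n = 2) on 141 and 162 fragments. The nearest region lay 21 kb upstream at chr9:35652482-35652872 with folds of 30.6 and 19.0 and similar fragments, 65 and 70. Its background was 1.00 in replicate 1, the lowest value in that list, and 2.0 in replicate 2. A run of 4 regions stood 163 to 140 kb upstream, with mean folds from 10.9 to 27.6. CA9 lies among many genes, and in the gene order of GRCh38.p14 its neighbours are ARHGEF39 and TPM2.

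ADM combined many summits with few reproducible regions. It had 36 summits in replicate 1 and 44 in replicate 2, in both lists the most after HIF1A, with 4 regions. The strongest was also the nearest to the start, 2.3 kb downstream at chr11:10328896-10329608, with folds of 27.6 and 18.1 (22.8 ± 6.70, SD, n = 2) on 237 and 225 fragments. The regions 11 kb upstream and 17 kb downstream had folds of 19.6 and 24.4, and 13.8 and 21.95. Between them both replicates had summits 1.6 and 0.4 kb upstream of the start and within 0.4 kb after it. These stood at folds of 10.1, 5.16 and 5.33 in replicate 1 and 6.502, 2.78 and 5.97 in replicate 2. All of these peaks overlapped one of the other replicate, but none of them is in the IDR table. The summits of the ADM locus had high median backgrounds, 5.18 and 4.52 expected fragments, against 2.14 and 2.20 over all summits. The part of that background in the low number of reproducible regions was not tested.

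BNIP3 had a single region, 16 kb upstream at chr10:133811073-133811652. It was close between the replicates, with folds of 28.5 and 29.0 (28.7 ± 0.328, SD, n = 2) on 105 and 148 fragments. The lists held 5 summits in replicate 1 and 9 in replicate 2 at this locus, the fewest of the 10, so the locus was sparse in sites and its region strong. SLC2A1 had 5 regions, of which the nearest lay 22 kb downstream at chr1:43402804-43403281, with folds of 23.5 and 28.01 (25.8 ± 3.17, SD, n = 2) on 202 and 225 fragments. Its strongest lay 137 kb downstream at chr1:43287862-43288397, with folds of 35.0 and 19.8, backgrounds of 3.0 and 7.0, and 150 and 197 fragments. Neither of these genes had a summit within 2 kb of the start. With VEGFA and CA9 that makes 4 of the 5 targets, and 4 of the 10 loci. The same share over all genes is not known, since no annotation of hg19 was used here.

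To ask how far both experiments marked the same sites at these loci, the peaks of each list were compared with the other list. In replicate 1, 200 of the 222 member peaks had an overlapping peak in replicate 2, or 90.1% (95% exact binomial interval 85.4 to 93.7%) beside 82.0% for the whole list. In replicate 2 it was 198 of 282, or 70.2% (interval 64.5 to 75.5%) beside 62.8%. Each list had 76 member peaks in the IDR table, which is 34.2% of the peaks of replicate 1 (34.2% of all its peaks) and 26.95% of those of replicate 2 (26.3% of all). Shared peaks were above the background share at these loci and reproducible ones close to it. This is a description, since the loci were chosen by peaks of these same lists. Member summits rested on medians of 30 and 33 fragments in replicates 1 and 2, against 24 and 28 over all summits. The part of peak height in the sharing was not tested. The intervals cover counting error only, and neighbouring peaks are not independent. Of the member peaks outside the IDR table, 124 of 146 in replicate 1 and 122 of 206 in replicate 2 were shared. In the whole list of replicate 1, 61602 of 75169 peaks were shared and 25739 were in the IDR table. In that of replicate 2, 61465 of 97829 were shared and 25696 were in the IDR table. The shared part of all peaks outside the table was not worked out. Member peaks outside the table, shared or not, had median folds of 5.33 and 5.15.

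The loci differed in this share. At CA9, 11 of 19 peaks of replicate 1 were in the IDR table (57.9%, interval 33.5 to 79.7%), and at EPAS1 15 of 32 (46.9%, interval 29.1 to 65.3%). In replicate 2 EPAS1 had 15 of 35 (42.9%, interval 26.32 to 60.6%), an interval just above the share of that whole list. At ADM it was 4 of 32 (interval 3.51 to 29.0%) in replicate 1 and 4 of 42 (9.52%, interval 2.66 to 22.6%) in replicate 2, with both intervals below the share of the whole list. These intervals are no test, since the loci were chosen by peaks of these same lists. EGLN1 had 2 of 15 and 2 of 23. The strongest peaks outside the IDR table were at ARNT in replicate 1, 72 kb downstream with a fold of 14.1 and 35 fragments, and at VEGFA in replicate 2, 141 kb downstream with a fold of 20.1 and 63 fragments. Both were shared between the lists.

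**Figure D4:**
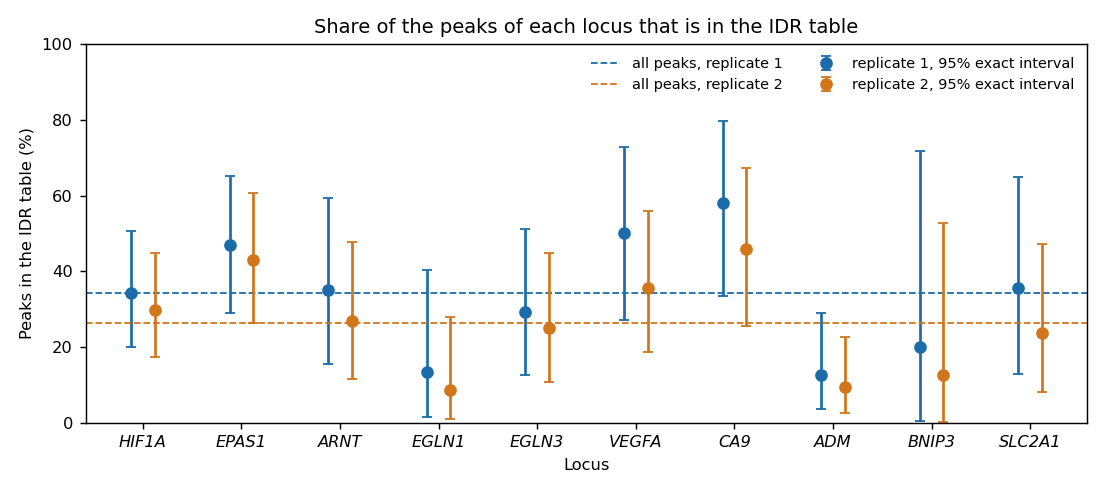
Share of the peaks of each locus that is in the IDR table, in percent, for each replicate, with exact 95% binomial intervals and the share among all peaks of that replicate as dashed lines. The ADM intervals lie below the dashed line of their replicate, the EPAS1 interval of replicate 2 lies just above it, and the other intervals span it.

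The strengths of the regions are also a description, since peak strengths took part in the choice of the loci. The 76 regions had median folds of 16.7 and 19.8 in replicates 1 and 2, against 15.3 and 16.0 over all regions. Their median fragments were 86 and 108.5, against 58 and 76, and their median background was 3.32 and 3.00, against 2.14 and 2.65. Of the 76, 48 (63.2%) had a mean fold above the median of all regions (50% of all by construction). The top decile of all regions (10.0% by construction) held 7 member regions (9.21%), at EPAS1 (3), VEGFA (2), ARNT (1) and CA9 (1). Neither HIF1A nor the hydroxylase genes had one. More than 1 summit in at least 1 replicate was seen at 14 regions (18.4%, against 15.6% of all regions). Member regions had a median width of 511.5 bp against 421 bp, and their summits lay a median of 6 bp apart between the replicates.

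The replicates ordered the member regions more alike by fragments than by fold. Across the 76 regions Spearman's rho between the replicates was 0.920 for fragments and 0.666 for fold, and over all regions it was 0.890 and 0.609. These are descriptions across sites, which share their libraries and depth. Folds more than 2 times apart were seen at 7 member regions (9.21%, against 7.46% of all regions). Replicate 2 had the higher fold at 49 of the 76 (64.5%, against 54.6% of all regions).

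To compare the replicates at each region, the part of the fragments that came from replicate 2 was tested against its running median over regions ordered by height (two-sided exact binomial tests, adjusted over all 25602 regions by the Benjamini-Hochberg method). The test compares the libraries and not conditions, and it covers counting error only. Before adjustment, 13 of the 76 regions and 16.6% of all regions had a p of at most 0.05 in this exact binomial test. That is more than counting error alone would give, so the adjusted p-values may be too small. Of the 76 regions 3 differed after adjustment (3.95%), against 3.16% of all regions. Higher in replicate 1 was the EPAS1 region 175 kb upstream, at chr2:46349459-46349927, with 79 and 59 fragments (exact binomial test, adjusted p = 0.046), a direction called at 1.81% of all regions. This call was lost with a running median over fewer regions (exact binomial test, adjusted p = 0.0551). Higher in replicate 2, a direction called at 1.35% of all regions, were the EGLN3 region 189 kb upstream with 43 and 106 fragments (chr14:34608345-34609349, exact binomial test, adjusted p = 0.0245) and the VEGFA region 147 kb downstream with 53 and 119 (chr6:43884882-43885636, adjusted p = 0.026). None of these was the strongest or nearest region of its locus.

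**Figure D5:**
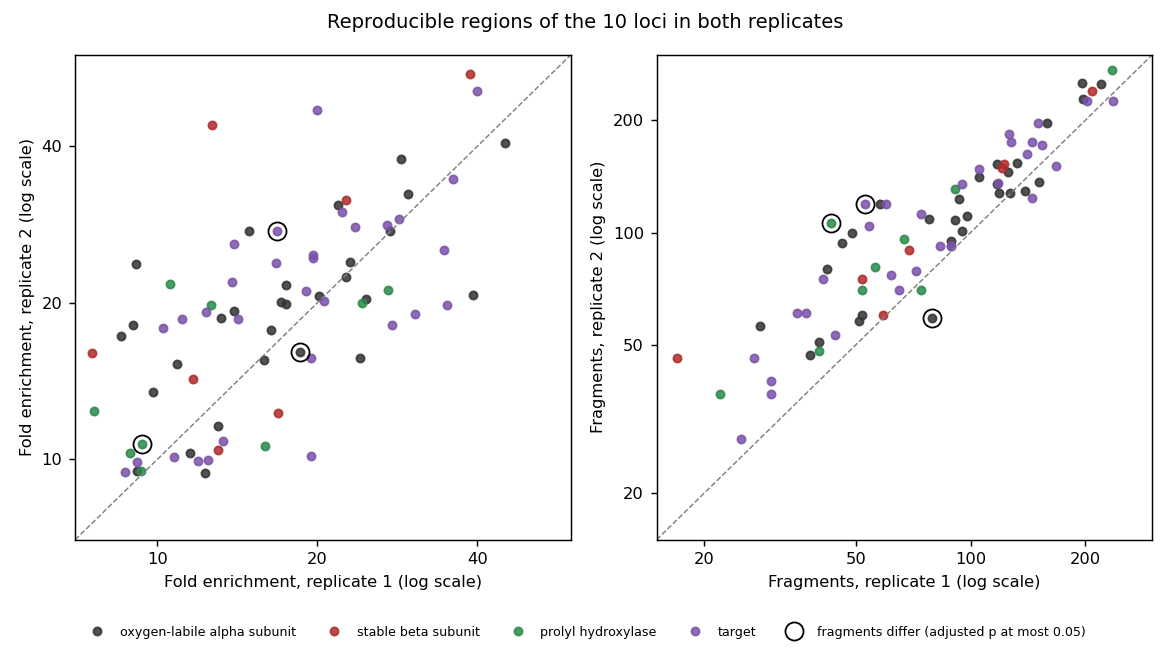
Fold enrichment (left) and fragments at the summit (right) of the 76 regions in replicate 1 against replicate 2, on log axes, coloured by the role of the gene, with the line of equal values dashed. Large open circles mark the 3 regions whose fragments differed between the replicates. Points follow a line more closely on the right (rho of 0.920) than on the left (0.666).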

How the data were processed

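CEBPB ChIP-seq peaks of NCM460 cells were analysed for 2 ChIP samples called against input. Tools listed in the submitters' processing notes are MACS2 2.1.2, Bowtie2 2.3.4, bedtools 2.25.0, FastQC 0.11.7 and SAMtools 1.9, with hg19 as the build. Their settings, any duplicate removal and the pairing of inputs are not given in the sources used here. Each deposited list, made from 1 sample, holds a score (10 times the −log10 q), a fold ratio over background, −log10 p and −log10 q, and a summit. The deposited IDR table holds −log10 IDR. Its start and end columns of each sample linked the regions to the lists, and the other per-sample columns, 4 in total, were not used.

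The members, gene lists and tests were chosen with earlier results of these data known. Start sites came with the rule, rounded to 1 kb. Summits, and midpoints of distinct IDR intervals, within 200 kb were members. Each region took the strongest summit by fold of the matched interval in each list. Fragments and background were solved from fold and −log10 p, since MACS2 adds a pseudocount of 1 to pileup and background; with scales of 0.927 and 0.800 per read, 100% of summits gave whole fragments within 0.005 of the −log10 p. The background has a floor of 1.00 and 1.36 expected fragments, so background scales differ between the replicates. Sequencing depth is unknown. Named regions were, per locus, the strongest and the nearest, plus the 5 strongest over all loci, those in runs of at least 5 and those that differed; of peaks outside the IDR table, the strongest of each list and those within 2 kb of a start site. A few other regions and peaks were named after their values were seen. Regions were tested with a running median of 1001 regions, and scripts were tested on simulated data. A planned list of other pathway genes was not run, since no hg19 annotation was used here. Bands and chromosome lengths came from circlize 0.4.16. Other software was SciPy 1.17.1, NumPy 2.4.6, matplotlib 3.10.9 and pandas 2.3.3 under Python 3.11.15.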

Additional observations from a re-analysis of the deposited data

How the results depend on the processing

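With 2 samples and 1 list each, the tests cover counting error only. The tile shares in Giemsa-negative bands and the strength by fragments were chosen after seeing the data. The 76 reproducible regions became 37 with a window of 100 kb, 21 with 50 kb and 51 at an IDR of at most 0.01, and 180 to 229 when single lists at a −log10 q of at least 5 replaced the pair. Summits in a window of 100 kb numbered 132 in replicate 1 and 164 in replicate 2. Sharing in replicate 1 became 82.9% at an overlap of 50% of both intervals (76.9% of the whole list), and at a −log10 q of at least 5 it was 93.9% in replicate 1 (87.8%) and 78.2% in replicate 2 (70.4%). Of all 25602 regions, 15504 had an IDR of at most 0.01. The share of member peaks in the IDR table became 22.97% and 18.1% at that limit, and this share was not worked out over all peaks. Regions within 1 kb of a start site numbered 1. The 15 regions in runs of at least 5 became 0 with gaps of 5 kb and 6, all at EPAS1, at an IDR of at most 0.01. Runs over all regions were not counted. The 3 regions that differed became 6 with a single median share, a setting at which the share over all regions was not worked out. The palindromic motif matched 0 of the promoters. The cause of these shifts was not tested, apart from narrower windows and stricter lists holding fewer sites. The share of regions above the median fold of all regions stayed above 50% in the alternatives run for it, at 55.3 to 67.1% without one replicate and 73.7% by fragments. No paired analysis was possible because input reads appear here solely as the caller's background, which leaves 1 group with values.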
